A study of Mus musculus with 6 samples.

Results

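The aldo-keto reductases of family 1 were examined in small intestinal crypts that do or do not carry an epithelial deletion of CSN8. A list of 10 genes was taken, and its members were found by their symbol in the platform annotation: 9 of the 10, out of 19505 genes with a symbol, had a probe set. They were Akr1a1 of subfamily A, Akr1b8 of subfamily B, and Akr1c6, Akr1c12, Akr1c13, Akr1c14, Akr1c18, Akr1c19 and Akr1c21 of subfamily C. Akr1b7, the other listed gene of subfamily B, had no probe set with its symbol and was not analysed here. Among the listed genes, subfamily B was therefore represented by Akr1b8 alone. Akr1b10, a gene of subfamily B that was measured but not listed, is described further below. The list was selected on family membership by symbol with the log2 genotype differences of these arrays known, and the genotype differences of its members are given below as a description, without p-values. These differences, and the calls made from them, rest on the same arrays that led to the choice and are not independent evidence.

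Total RNA from crypts was hybridised to Affymetrix arrays, 1 array for each of 6 samples, 3 per genotype. All mice were on a C57bl/6 background. CSN8fl/fl mice, the controls, carry a loxP-flanked allele of Cops8, the gene of COP9 signalosome subunit CSN8, and CSN8ΔIEC mice are named as lacking it in intestinal epithelial cells; the sources used here do not name the Cre driver or say whether controls were littermates. In both genotypes replicates 1 and 2 are labelled female and 16 weeks old and replicate 3 male and 10 weeks old. The samples are labelled biological replicates, with no statement that every one is a different mouse. The SDs below therefore measure the spread between samples, part of which may be technical. The SEs are limma's moderated ones, in which each gene's variance is drawn toward a value shared by all genes. Crypt preparations hold several cell types, and fewer cells of a type cannot be told apart from less RNA per cell in them.

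Aldo-keto reductases are soluble enzymes that use NADPH or NADH to reduce aldehydes and ketones to alcohols. Subfamily A holds aldehyde reductase, subfamily B holds aldose reductase and its relatives, which reduce reactive aldehydes and sugars, and subfamily C holds hydroxysteroid and dihydrodiol dehydrogenases, which act on steroids, prostaglandins and foreign carbonyl compounds. Several family members are induced through NRF2, a transcription factor stabilised when the CUL3 and KEAP1 ubiquitin ligase fails to mark it for degradation. The COP9 signalosome removes NEDD8 from cullins, the scaffolds of such ligases. In intestine, these enzymes are counted among the defences against dietary and microbial carbonyls.

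The RefSeq promoter windows of the genes with the largest genotype differences are shown here, because 3 of them lie side by side in a gene cluster and differ in how far their signals moved. Each window runs from 250 bases before to 50 bases after the annotated start on build GRCm38.p6 and is written 5′ to 3′ on the gene's strand. RefSeq windows were found for 10 of the 10 listed genes. In Akr1b8 (chr6:34353896-34354195, plus strand), Akr1c19 (chr13:4233490-4233789, plus strand) and Akr1c14 (chr13:4059341-4059640, plus strand), capitals mark matches to any of the motifs searched.
Akr1b8: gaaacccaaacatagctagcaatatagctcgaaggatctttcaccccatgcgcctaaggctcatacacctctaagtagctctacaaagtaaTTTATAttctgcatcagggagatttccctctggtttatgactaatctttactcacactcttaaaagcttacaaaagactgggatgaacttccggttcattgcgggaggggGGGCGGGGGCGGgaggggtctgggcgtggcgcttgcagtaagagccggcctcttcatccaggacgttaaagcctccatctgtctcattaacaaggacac
Akr1c19: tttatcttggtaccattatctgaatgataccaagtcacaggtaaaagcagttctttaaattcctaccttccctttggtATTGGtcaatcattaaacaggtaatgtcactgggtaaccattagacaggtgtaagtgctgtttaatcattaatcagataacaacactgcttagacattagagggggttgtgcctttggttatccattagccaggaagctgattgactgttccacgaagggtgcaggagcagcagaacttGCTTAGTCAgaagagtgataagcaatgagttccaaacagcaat
Akr1c14: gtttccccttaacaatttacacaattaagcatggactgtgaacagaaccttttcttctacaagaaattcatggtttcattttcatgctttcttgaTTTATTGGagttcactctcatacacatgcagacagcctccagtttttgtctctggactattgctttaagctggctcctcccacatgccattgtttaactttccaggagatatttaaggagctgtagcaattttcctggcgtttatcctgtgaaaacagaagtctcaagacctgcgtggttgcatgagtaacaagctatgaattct

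Akr1c12 (chr13:4279350-4279649, minus strand) and Akr1c13 (chr13:4190937-4191236, plus strand) held no match to any motif searched. Within the stretch that both windows cover, their capitals mark bases that differ from, or have no counterpart in, the other gene; the ends that reach beyond the other window are in lower case.
Akr1c12: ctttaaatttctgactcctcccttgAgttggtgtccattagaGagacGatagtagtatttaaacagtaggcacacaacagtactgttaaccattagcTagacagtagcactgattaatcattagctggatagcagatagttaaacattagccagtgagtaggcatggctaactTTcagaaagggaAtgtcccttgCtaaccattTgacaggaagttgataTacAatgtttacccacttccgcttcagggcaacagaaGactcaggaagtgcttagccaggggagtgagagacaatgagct
Akr1c13: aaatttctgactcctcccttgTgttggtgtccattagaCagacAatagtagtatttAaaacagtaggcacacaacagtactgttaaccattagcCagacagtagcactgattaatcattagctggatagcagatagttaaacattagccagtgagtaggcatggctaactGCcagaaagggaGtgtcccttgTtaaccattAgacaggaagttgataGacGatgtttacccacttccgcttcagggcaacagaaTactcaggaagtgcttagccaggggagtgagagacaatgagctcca

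Over the 297 aligned positions that both windows cover, 284 bases of Akr1c12 and Akr1c13 were identical (95.6%) and 13 positions differed. Over whole windows, gaps at the ends included, identity was 93.4% between Akr1c12 and Akr1c13, 58.5% between Akr1c13 and Akr1c19, and 56.7% between Akr1c12 and Akr1c19. Motifs were searched on both strands. The antioxidant response element core TGACNNNGC, to which NRF2 binds with a small MAF partner, was in 1 of the 10 windows, that of Akr1c19. Counted along the gene's strand, the match starts at base 8 of the transcript, and the motif reads on the opposite strand. The letters TGACNNNGC occurred in 12.4% of all 32851 RefSeq promoter windows. The AP-1 site TGANTCA was in 0 of 10 windows (7.81% of all windows), the CDX motif TTTATNG in 4 (10.9%), the TATA box TATAAA in 2 (13.6%), the CCAAT box in 4 (37.4%) and the GC box GGGCGG in 2 (35.7%). The 2 GC boxes of Akr1b8 abut each other, beginning 49 and 43 bases before the start, and the CDX motif and the CCAAT box of Akr1c14 overlap. A match is a description of the letters, and a window without one says nothing of more distant sites.

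Akr1b8 had the largest genotype difference of the family. Its enzyme, first described as a fibroblast growth factor-regulated protein, reduces aliphatic and aromatic aldehydes. Its log2 signal read 7.88, 8.82 and 6.99 across the CSN8fl/fl arrays, in order of replicate number, and 12.04, 11.59 and 11.48 across the CSN8ΔIEC arrays; other genes are listed in the same order. The groups did not overlap, and the lowest CSN8ΔIEC array lay 2.66 above the highest CSN8fl/fl array. The mean went from 7.90 ± 0.92 to 11.70 ± 0.29 (SD, n = 3), a log2 difference of 3.81 ± 0.39 (SE), or 14.0-fold. The CSN8fl/fl arrays were themselves far apart, with replicate 2 standing 3.56-fold above replicate 3, whereas the CSN8ΔIEC arrays spanned 1.47-fold.

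**Figure D1:**
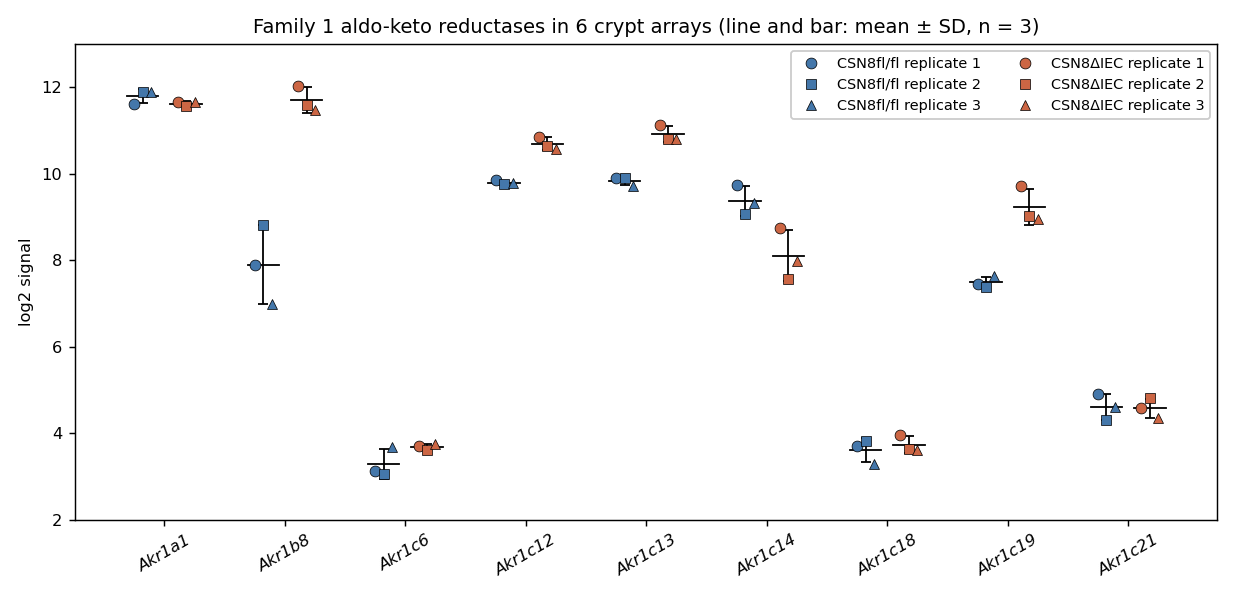
Log2 signal (y axis) of each measured family member (x axis) in every array; the line and bar are the mean ± SD of 3 arrays. Akr1b8, Akr1c12, Akr1c13 and Akr1c19 are higher in each CSN8ΔIEC array than in each CSN8fl/fl array, Akr1c14 is lower in each, and signals of different genes come from different probes and are not compared.

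Of the C members, 3 rose. Akr1c19, a dehydrogenase of hydroxysteroids and other alcohols, read 7.46, 7.38 and 7.62 in CSN8fl/fl and 9.71, 9.03 and 8.95 in CSN8ΔIEC. All 3 CSN8ΔIEC arrays were higher, by 1.33 at the closest, and the difference was 1.74 ± 0.20, or 3.35-fold. Akr1c13 read 9.89, 9.90 and 9.71 against 11.13, 10.81 and 10.81, a difference of 1.09 ± 0.13, or 2.12-fold. Akr1c12 read 9.85, 9.76 and 9.78 against 10.86, 10.65 and 10.56, a difference of 0.90 ± 0.12, or 1.86-fold. In both genes the groups lay apart and CSN8ΔIEC replicate 1 was highest, as it was for Akr1b8 and Akr1c19. Akr1c12 and Akr1c13 encode closely related enzymes of stomach and gut, and their probes may read each other's transcripts; over the 6 arrays their correlation was 0.993 (Pearson r, a description). Measured from the CSN8fl/fl means, Akr1c13 exceeded Akr1c12 by 0.24, 0.12 and 0.21 in CSN8ΔIEC replicates 1 to 3.

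Akr1c14 ran the other way. It encodes a hydroxysteroid dehydrogenase that acts at the third carbon of steroids, and its signal was 9.73, 9.06 and 9.32 in CSN8fl/fl against 8.74, 7.57 and 7.99 in CSN8ΔIEC. Each CSN8ΔIEC value was below each CSN8fl/fl value, but CSN8ΔIEC replicate 1 was closer to the controls than to CSN8ΔIEC replicate 2. The difference was −1.27 ± 0.28, which missed the threshold over all genes. It passed with the replicate number as a block, where the difference is −1.27 as well. In the check described in the closing section, same-numbered samples hardly deviated together (r of 0.12, −0.024 and 0.038).

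The remaining C members had low signals, in a table whose named genes ranged from 2.35 to 14.06. Akr1c6, a liver hydroxysteroid dehydrogenase that forms testosterone, read 3.11, 3.04 and 3.68 in CSN8fl/fl and 3.69, 3.61 and 3.75 in CSN8ΔIEC (difference 0.40 ± 0.17), so CSN8fl/fl replicate 3 lay among the CSN8ΔIEC arrays. Akr1c18, which inactivates progesterone, read 3.71, 3.82 and 3.30 against 3.97, 3.63 and 3.61 (difference 0.13 ± 0.17, and −0.030 without CSN8fl/fl replicate 3). Akr1c21, a hydroxysteroid dehydrogenase known from kidney, read 4.91, 4.29 and 4.61 against 4.57, 4.80 and 4.35 (difference −0.030 ± 0.18, and 0.0024 or 0.0047 when arrays were centred on their medians or quantile normalized again). For these 3 genes the groups overlapped. RMA values carry no detection call, so whether the transcripts were present at all was not tested.

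Akr1a1, the aldehyde reductase of subfamily A, which also takes part in ascorbate synthesis in mice, had high signals with little spread. It read 11.62, 11.89 and 11.89 in CSN8fl/fl and 11.66, 11.56 and 11.65 in CSN8ΔIEC. The groups overlapped and the difference was −0.18 ± 0.12.

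Of the 9 members, 4 rose (Akr1b8, Akr1c12, Akr1c13 and Akr1c19), 0 fell and 5 did not pass an adjusted p of 0.05 in limma's moderated linear model over all genes, where 1.08% of all genes were called, 0.374% as higher and 0.702% as lower in CSN8ΔIEC. The groups did not overlap in 5 members, 4 higher and 1 lower, against 22.4% of all genes in either direction, 10.7% higher and 11.7% lower. The median difference was 0.40 over the 9 members and −0.011 over all genes. Because the genes were listed with this contrast known, nothing is read from these counts. The count of 4 was 2 without CSN8ΔIEC replicate 1, where Akr1b8 (difference 3.64) and Akr1c19 (1.51) passed and Akr1c13 (0.98) and Akr1c12 (0.81) did not, and Akr1c12 did not pass without CSN8fl/fl replicate 2 either (0.88). Akr1b8 and Akr1c19 passed under every alternative run, but each alternative reuses the arrays that led to their choice, so this is no support for them.

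**Figure D2:**
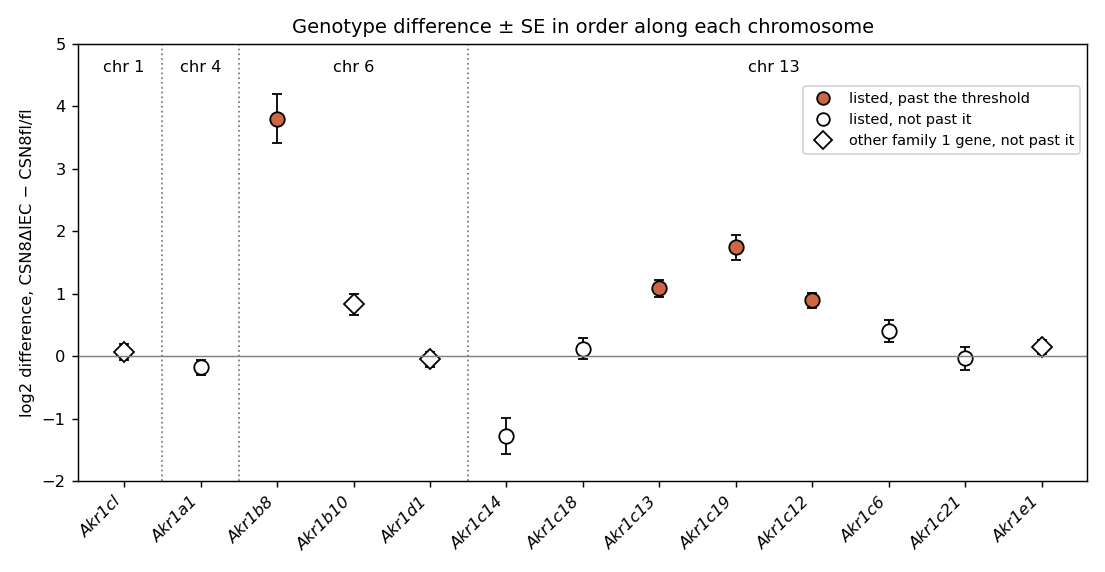
Log2 difference between genotypes ± SE (y axis) for the measured family members and the other measured genes of the family, in RefSeq order along each chromosome (x axis, spacing not to scale). Filled symbols passed the threshold over all genes; Akr1c13, Akr1c19 and Akr1c12 are neighbours on chromosome 13 and the 3 filled C members.

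By position, the RefSeq table places Akr1c14, Akr1c18, Akr1c13, Akr1c19, Akr1c12, Akr1c6, Akr1c20, Akr1c21 and Akr1e1 next to each other in this order among the Akr1 genes of chromosome 13. The 3 C genes that rose are consecutive in that order. They are flanked by Akr1c18 and Akr1c6, both at low signals, and Akr1c14, the gene with the lower signals in CSN8ΔIEC, comes first in that order. On chromosome 6 the order is Akr1b3, Akr1b8, Akr1b10 and Akr1b7, and no values of Akr1b3 and Akr1b7 are given here. Akr1b10, the neighbour of Akr1b8 and an aldose reductase-like enzyme, is no listed member; it read 7.60, 8.005 and 7.56 in CSN8fl/fl and 8.57, 8.32 and 8.78 in CSN8ΔIEC. All its CSN8ΔIEC values were higher (difference 0.83 ± 0.17, or 1.78-fold), and it did not pass over all genes in limma (adjusted p = 0.0603; 0.037 to 0.227 over the alternatives). It passed when dim genes were filtered out, when arrays were centred on their medians, with array weights, and with trend and robust options of limma.

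Subfamilies B and C were set against each other array by array. Relative to the mean of the CSN8fl/fl arrays, Akr1b8 was 4.14, 3.69 and 3.59 higher in CSN8ΔIEC replicates 1 to 3, and the mean of the 7 C members was 0.67, 0.30 and 0.29 higher. B minus C was therefore 3.47, 3.39 and 3.29 in the CSN8ΔIEC arrays, against −0.11, 1.03 and −0.92 in CSN8fl/fl replicates 1 to 3. The genotype difference of B, here Akr1b8 alone, exceeded that of C by 3.38. The SD of B minus C was 0.98 in CSN8fl/fl and 0.088 in CSN8ΔIEC (n = 3 each). In every CSN8ΔIEC array the Akr1b8 deviation was larger than that of any C member. The nearest, Akr1c19, was 2.22, 1.55 and 1.47 above its CSN8fl/fl mean. The mean over C hides opposite signs, since Akr1c14 deviated by −0.63, −1.80 and −1.38 in the same arrays. With the dim members Akr1c6, Akr1c18 and Akr1c21 left out, B exceeded C by 3.19, and with Akr1b10 averaged into B it exceeded C by 1.90; these 2 alternatives were chosen after seeing the data. Akr1b10 by itself differed by 0.83, less than Akr1c12 (0.90), Akr1c13 (1.09) and Akr1c19 (1.74). The excess of B is therefore that of Akr1b8 and is not a trait shown for the subfamily. No value of Akr1b3, the aldose reductase, or of Akr1b7 entered B.

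**Figure D3:**
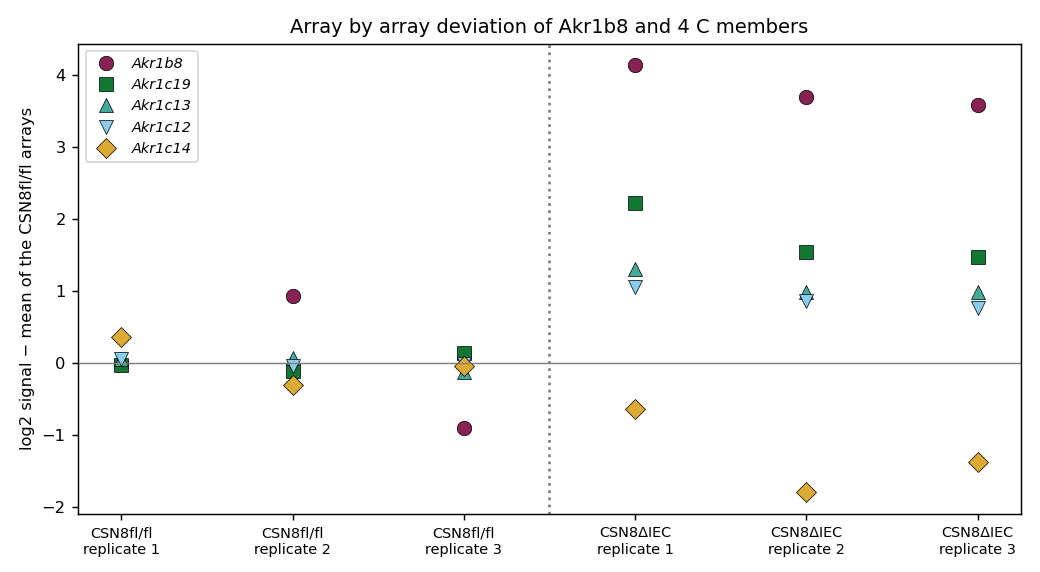
Log2 signal of Akr1b8 and 4 C members in each array, less the mean of the 3 CSN8fl/fl arrays for that gene (y axis), by array (x axis). In CSN8ΔIEC, Akr1b8 lies between 3.59 and 4.14 and Akr1c14 between −1.80 and −0.63; among CSN8fl/fl arrays, Akr1b8 is spread from −0.91 to 0.93 while Akr1c12 and Akr1c13 stay close to 0.

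The members differed in how much they varied inside the control group. In CSN8fl/fl the SD was 0.92 for Akr1b8 and 0.046, 0.11 and 0.13 for Akr1c12, Akr1c13 and Akr1c19. In CSN8ΔIEC the corresponding SDs were 0.29, 0.15, 0.19 and 0.41. In controls Akr1b8 was highest in replicate 2 and lowest in replicate 3, an order that Akr1c19 did not share, with its highest control value in replicate 3. CSN8fl/fl replicate 3 also stood apart over all probe sets, with correlations of 0.976 to 0.986 with the other arrays. Without that library the Akr1b8 difference was 3.35, and without CSN8fl/fl replicate 2 it was 4.27.

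The genes whose pattern over the 6 arrays was most like that of Akr1b8 and of Akr1c19, the members with the largest SD over all arrays, were drawn from 1662 genes with a range of at least 1. Likeness is Pearson's r over 6 arrays that fall into the 2 genotypes, so it mainly reflects the gap between them. For Akr1b8 they were Nqo1, a quinone reductase (r = 0.993), Gsta3, a glutathione S-transferase (0.992), Plet1 (0.991), Ugt2b5, a glucuronosyltransferase (0.990), and the ephrin receptor Epha4 (0.989). Nqo1 read 8.77, 9.20 and 8.08 in CSN8fl/fl and 10.75, 10.46 and 10.23 in CSN8ΔIEC, with the same high replicate 2 and low replicate 3 among the controls as Akr1b8. For Akr1c19 they were Gclc, the catalytic subunit of glutamate cysteine ligase (r = 0.996), Matn2 (0.987), Tgfbr2, a TGF-β receptor (0.985), Cbr1, a carbonyl reductase (0.982), and Gstm2, a glutathione S-transferase (0.979). Gclc read 9.56, 9.57 and 9.69 in CSN8fl/fl and 11.27, 10.62 and 10.71 in CSN8ΔIEC, with the controls close together and CSN8ΔIEC replicate 1 highest, as for Akr1c19.

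A comparison that the choice of genes did not use is that of the arrays labelled male and 10 weeks with those labelled female and 16 weeks. The label of sex is in doubt, because Y-linked signals run opposite to it in every library. The Y-linked Eif2s3y read 4.06 and 2.81 in the libraries labelled male of CSN8fl/fl and CSN8ΔIEC and 9.61 to 10.10 in those labelled female. Kdm5d and Uty were also low in the libraries labelled male and high in those labelled female. With genotype in the model, 0 of the 9 members passed in limma, where 0.0154% of all genes, the 3 Y-linked genes, were called. At an unadjusted p under 0.05 there were 2 of the 9 members and 1202 of all 19505 genes. The libraries labelled male were lower in Akr1b8 by −0.85 ± 0.31 (limma adjusted p = 0.778) and higher in Akr1c6 by 0.35 ± 0.15 (adjusted p = 0.778), and the other 7 members differed by −0.33 to 0.085. The interaction of genotype with this label passed in 0 of the 9 members and in 0% of all genes in limma, with 0 members and 1974 genes at an unadjusted p under 0.05; 1 gene, no member, passed with limma's trend and robust options. The genotype difference of Akr1b8 was 3.46 among the libraries labelled female and 4.49 between the pair labelled male (interaction 1.03 ± 0.55, limma adjusted p = 0.555). Those of Akr1c19 were 1.95 and 1.33 (interaction −0.62 ± 0.40, adjusted p = 0.615). Each genotype has 1 library labelled male, and in controls it is the one that stands apart.

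None of the 8 other aldo-keto reductases measured passed the threshold. They had a median difference of −0.014 and 2 with groups apart, Akr1b10 and Akr1e1, both higher in CSN8ΔIEC. Over all genes 22.4% had groups apart in either direction and 10.7% higher, so nothing is read from this count. Akr1e1, which reduces anhydrofructose, differed by 0.15 ± 0.11, and Akr7a5, which reduces aflatoxin dialdehyde, by −0.18 ± 0.19. Akr1cl differed by 0.074 ± 0.13 and Akr1d1, the steroid reductase of bile acid synthesis, by −0.047 ± 0.12. The potassium channel subunits of the superfamily, Kcnab1, Kcnab2 and Kcnab3, differed by 0.019 ± 0.19, −0.22 ± 0.14 and −0.19 ± 0.18. Kcnab1 turned to −0.040 with array weights.

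Among other enzymes of carbonyls and aldehydes, 3 of 30 rose and 0 fell (median −0.032). Cbr3, a carbonyl reductase, went from 5.87 ± 1.23 to 9.69 ± 0.57 (SD, n = 3; difference 3.82). Aldh1a1, which oxidises retinaldehyde and other aldehydes to acids, went from 10.53 ± 0.34 to 11.86 ± 0.24 (2.51-fold, limma adjusted p = 0.0185), and Cbr1 from 10.27 ± 0.13 to 11.37 ± 0.15 (2.14-fold, adjusted p = 0.00996). The count of 3 was 0 without CSN8ΔIEC replicate 1. Among 24 measured genes of steroid and bile acid metabolism, 0 passed in either direction (median −0.091). The count of lower genes in that list was 1 with array weights and 1 without CSN8ΔIEC replicate 2. Of 26 genes of prostaglandin synthesis, breakdown and reception, 2 rose and 0 fell (median −0.022): Cbr1, and Ptgr1, a prostaglandin and alkenal reductase (2.07-fold, adjusted p = 0.0095). The 2 became 0 without CSN8ΔIEC replicate 1. The count of genes that fell became 1 with dim genes filtered out, with labelled sex and age as a covariate, and with the replicate block. It was also 1 without CSN8fl/fl replicate 1 or 3.

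**Figure D4:**
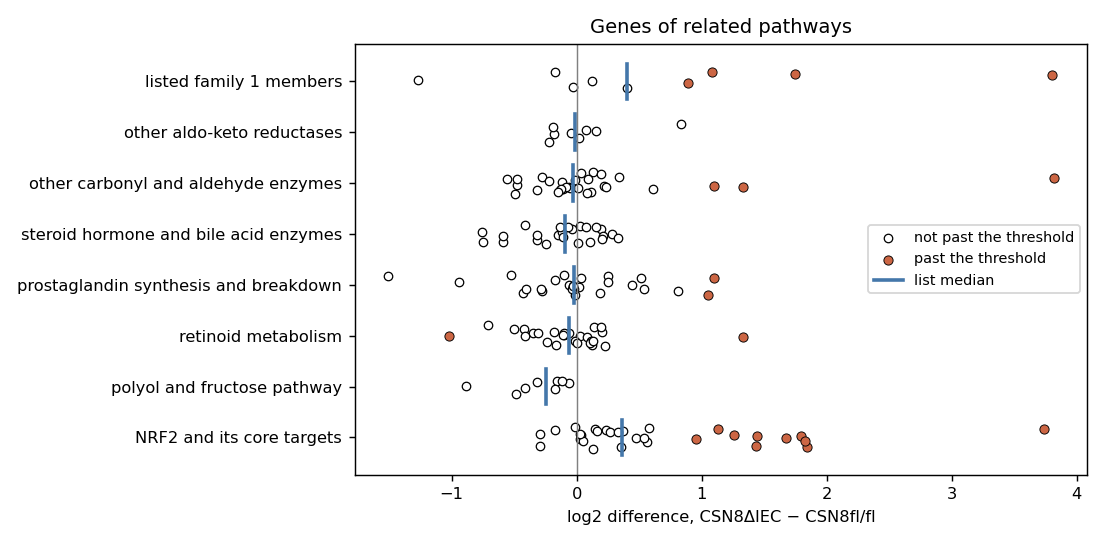
Log2 difference between genotypes (x axis) of every measured gene in the family and in 7 related lists (y axis; vertical scatter within a list is for display). Filled points passed the threshold over all genes and blue lines are list medians; the NRF2 list has 10 filled points, all above 0, and the steroid, polyol and other aldo-keto reductase lists have none.

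Of 27 genes of retinoid metabolism, Aldh1a1 rose and Lrat, which esterifies retinol for storage, fell 2.03-fold (adjusted p = 0.0239; median of the list −0.057). Lrat did not pass without any 1 library other than CSN8ΔIEC replicate 2, with differences of −0.89 to −1.09, and Aldh1a1 did not pass without CSN8ΔIEC replicate 1 or 2 (1.19 and 1.38). None of the 8 measured genes listed for the polyol and fructose pathway passed (median −0.24). They were Khk, Tkfc, Slc2a5, Slc2a2, Glyctk, Fbp1, Fbp2 and Slc5a1. Aldose reductase (Akr1b3) and sorbitol dehydrogenase, the enzymes of the polyol pathway itself, were not among them, so that pathway was not examined. Of 30 measured genes among NRF2 and its core targets, 10 rose and 0 fell, with a median of 0.36. The other 20 did not pass and had differences of both signs, such as −0.30 for Hmox1, 0.037 for Srxn1 and 0.58 for Gsr. Those that rose included Ephx1, an epoxide hydrolase (3.20-fold, adjusted p = 0.0082), Gstm1 (3.56-fold, adjusted p = 0.0113), Abcc3, an exporter of conjugates (2.19-fold, adjusted p = 0.0148), and Gclc (2.40-fold, adjusted p = 0.0166). The 10 became 2 without CSN8ΔIEC replicate 1 and 5 without CSN8ΔIEC replicate 2 or 3. The mean log2 signal of the list was 9.84, 10.16 and 10.02 across CSN8fl/fl arrays and 10.87, 10.66 and 10.56 across CSN8ΔIEC arrays, so that CSN8fl/fl replicate 2 and CSN8ΔIEC replicate 1 were the highest of their groups, as for Akr1b8, but the lowest control was replicate 1 and not replicate 3 as for Akr1b8. This list was written with earlier results of these arrays known.

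Cops8 itself read 8.26, 8.22 and 8.10 in CSN8fl/fl and 7.68, 7.61 and 7.77 in CSN8ΔIEC, and the difference of −0.50 ± 0.11 did not pass over all genes in limma (adjusted p = 0.0865; it passed with dim genes filtered out). The sources used here do not say whether its probes lie in the deleted part. Markers of other crypt cells moved with genotype beside the family. Of 15 Paneth cell markers 9 fell, and their mean log2 signal ranged from 12.45 to 12.52 in CSN8fl/fl and from 10.44 to 11.46 in CSN8ΔIEC; the count was 2 without CSN8ΔIEC replicate 1. Of 14 tuft cell markers 4 fell, with ranges of 7.08 to 8.70 and 5.87 to 5.98; the count was 0 to 9 without any 1 library. Of 12 goblet cell markers 5 fell (1 or 2 without any 1 library). Absorptive enterocyte and villus markers had 0 of 21 past the threshold, with ranges of 12.01 to 12.50 in CSN8fl/fl and 11.77 to 12.27 in CSN8ΔIEC, and leukocyte markers 0 of 13. Of 13 enteroendocrine markers 2 rose and 1 fell, of 10 stem cell markers 1 fell, of 12 stromal, muscle and endothelial markers 1 rose, and of 8 proximal and 9 distal intestine markers 1 and 0 fell. The lowest mean log2 signal in any array was 10.44 for the Paneth cell markers and 10.97 for the goblet cell markers. It was 11.77 for the absorptive enterocyte and villus markers. The lists hold different genes and probes, so these levels are not compared with each other. Villi were scraped off in the preparation, and whether villus cells remained was not tested. These values carry no detection call. The part of cell composition in the values of the aldo-keto reductases was not tested.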

How the data were processed

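The authors deposited log2 probe set signals of 22206 probe sets in 6 samples, made with RMA (background correction, quantile normalisation and summary of probes) and Partek 6.6, per the submitters' processing notes; settings and genome build: not given in the sources used here. Of these, 19572 had 1 symbol, 0 several and 2634 are unnamed here. For 55 genes with over 1 probe set the highest mean was used. Genotypes were compared with limma 3.58.1 in R 4.3.3 (lmFit, eBayes, 8.85 residual degrees of freedom), adjusted by the Benjamini-Hochberg method over 19505 genes; further models added the labelled sex and age and its interaction. Differences are CSN8ΔIEC minus CSN8fl/fl on the log2 scale ± limma's moderated SE. The script was tested on simulated data. Members and lists were chosen with earlier results of these data known. The text names all members, the other aldo-keto reductases, Cops8, Y-linked genes, up to 4 called genes of each list by smallest p (Cbr1 and Aldh1a1 stand in several lists), and for 2 members the 5 genes of highest r without predicted genes and small RNAs. The measured genes of the polyol and fructose list and some uncalled genes of the NRF2 list are named as well. For marker lists, counts are given in place of names. Promoters are RefSeq's and were used without the array's coordinates. Arrays have no read depth; their number limits the precision.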

Additional observations from a re-analysis of the deposited data

How the results depend on the processing

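Alternatives were a filter on dim genes, median centring, a further quantile normalization, limma's trend and robust options, array weights, the mean of a gene's probe sets, labelled sex and age as a covariate, the replicate block, and leaving out each library. The filter removed Akr1c6, Akr1c18 and Akr1c21. Akr1b8 and Akr1c19 passed under each of these, which is a description, since the genes were listed with this contrast known. Without any 1 library, 41 to 228 genes changed between genotypes (210 with all), 2 to 4 members were called, and B exceeded C by 2.93 to 3.90; with Akr1b10 in B it did so by 1.90. Uncalled values near 0 changed sign. The Akr1c21 difference was 0.0024 with centred arrays, 0.0047 after quantile normalization and −0.18 to 0.12 without any 1 library, where Akr1c18 ranged from −0.030 to 0.23, Akr1d1 from −0.10 to 0.023 and Kcnab1 from −0.13 to 0.25; Kcnab1 was −0.040 with array weights. The labelled sex and age difference ranged without any 1 library from −0.36 to 0.14 for Akr1c14, −0.42 to 0.21 for Akr1c19 and −0.33 to 0.011 for Akr1c21, and the Akr1c13 interaction was −0.014 with centred arrays. The cause was not tested. Same-numbered samples had correlations of 0.12, −0.024 and 0.038 of their deviations, so they hardly deviated together. Replicate 3 nevertheless shares its labelled sex and age, and low Y-linked signals, in both genotypes. With the replicate block 202 genes and 5 members were called, the fifth being Akr1c14. The number of arrays limits the precision.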
